A study of Homo sapiens with 27 samples.

Results

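The serpins and the alpha-2-macroglobulin family are the 2 large families of human protease inhibitors that trap their target. The genes examined were every symbol of the count tables made of SERPIN, a letter from A to I and a number, together with A2M, A2ML1, PZP and CD109. That rule gave 38 members, 34 serpins and 4 genes of the alpha-2-macroglobulin family, of 55882 symbols in the tables, of which 37 are described here, and 5 pseudogenes of these families were left out. The rule itself used names and annotation only, but the members were chosen with earlier results of these data known. The members were followed in poly(A) RNA of U2OS, a human osteosarcoma line, sequenced from 3 stable lines: the control, which held the empty pLKO.1 vector and which the sample labels call WT, MMP2sh1 (hairpin 23) and MMP2sh2 (hairpin 26), both of which held a pLKO.1 short hairpin RNA against MMP-2, the gene of matrix metalloproteinase 2. Each line was taken when subconfluent (day −2, cells plated at low density), when confluent (day 0) and when overconfluent (day +2), with 3 independent replicates in each of the 9 groups. All lines had gone through the same lentiviral transduction and puromycin selection, each hairpin is represented by 1 stable line, and the comparisons of MMP2sh1 and of MMP2sh2 share their control libraries.

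A serpin offers its target protease a flexible reactive loop as bait. When the protease cuts the loop, the serpin folds the cut loop into its body and drags the protease with it, so that inhibitor and protease are used up together. Alpha-2-macroglobulin and its relatives work as cages: a protease cuts the bait region, the inhibitor closes around it, and scavenging receptors on the cell surface clear the complex. Some members of the serpin family no longer inhibit proteases and serve instead as a collagen chaperone, as hormone carriers or as secreted factors. In connective tissue and bone the best known members control plasminogen activation and matrix turnover, and alpha-2-macroglobulin can also trap matrix metalloproteinases.

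The targeted gene was measured first. MMP2 stood at 232 ± 14.2, 325 ± 6.97 and 489.5 ± 8.50 CPM (read counts scaled to the size of each library, mean ± SD, n = 3) in control cells of day −2, 0 and +2. The level in MMP2sh1 was 17.3%, 18.1% and 19.8% of control at these days, and in MMP2sh2 61.7%, 48.1% and 56.8%, so both hairpins lowered their target and MMP2sh1 did so more strongly. Libraries held between 33580129 and 59374327 reads on genes. U2OS carries the label of a bone tumor: of 10 osteoblast and mesenchymal markers 8 or 9 reached 1 CPM in each group, with SPARC at 1182 to 2075 CPM and RUNX2 at 30.0 to 63.7 CPM in the libraries, whereas COL1A2 was at most 0.68 CPM and ALPL, the bone phosphatase, between 0.40 and 6.98 CPM. Many serpins are liver products, and 11 hepatocyte markers summed to 0.05 to 3.35 CPM with ALB at no more than 0.10 CPM. Summed markers of leukocytes (0.36 to 2.18 CPM) and of endothelium (5.66 to 9.73 CPM) were low as well.

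In these cells the protease inhibitors ran from one of the abundant messages to complete silence. Of the 37 members described, 14 reached 1 CPM in at least 1 group, 21 had enough reads to be tested in at least 1 of 16 comparisons, and 17 were called in at least 1. The like share over all genes was not taken. In control between day +2 and day −2 alone, 56.8% of all genes tested were called. That share covers 1 comparison and the 17 cover 16, so the 17 are given as a count only. The remaining 16 were never tested, with at most 26 reads in any library, and SERPINA7 and SERPINB11 had no read in any of the 27 libraries. Per kilobase of canonical transcript, averaged over the 9 groups, SERPINH1, the collagen chaperone HSP47, led with 224 CPM per kilobase. It was followed by SERPINA1 at 60.9, SERPINE2 at 53.8 and SERPING1 at 39.2 CPM per kilobase. SERPINB6, SERPINF1, A2M, CD109 and SERPINB1 lay between 26.999 and 10.8 on the same scale. No other member exceeded 4.52 CPM per kilobase, the level of SERPINB7.

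Members that lie in the same gene cluster differed widely in level. On chromosome 14, 9 members of clade A are annotated, and SERPINA1 (GRCh37 chr14:94843084-94857030, minus strand) was the single one of them above 1 CPM in any group. The other 8 peaked at 0.51 CPM (SERPINA5) or lower. Likewise 10 members lie on chromosome 18, of which SERPINB5, SERPINB7 and SERPINB8 reached 1 CPM, while SERPINB2, SERPINB10, SERPINB12 and SERPINB13 had 10 reads between them over all libraries. On chromosome 6, where the neighbors SERPINB1, SERPINB6 and SERPINB9 lie, SERPINB9 stayed below 1 CPM and the other two reached it.

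**Figure D1:**
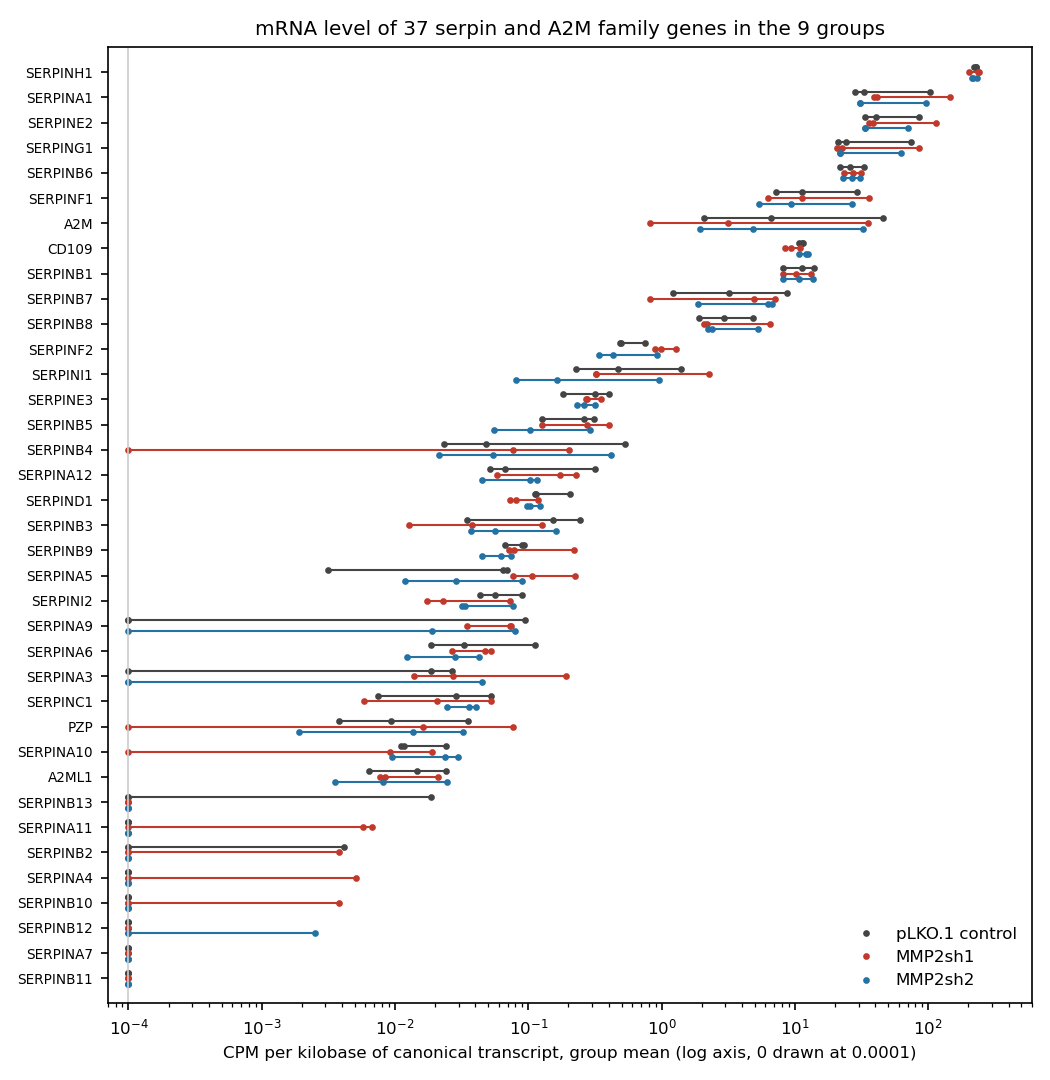
CPM per kilobase of canonical transcript (log axis, 0 drawn at 0.0001) of 37 serpin and alpha-2-macroglobulin family genes, with 1 point for each of the 9 group means and 1 row per line for each gene. SERPINH1 leads at 224 CPM per kilobase on average, A2M spans the widest range among the abundant genes, and SERPINA7 and SERPINB11 hold no read in any group.

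The first question was how the inhibitors change as control cells expand. Between day −2 and day +2, 13 of the 19 members tested were called, 11 higher and 2 lower. Over all 19099 genes tested in this comparison 56.8% were called, 28.1% higher and 28.6% lower. The median log2 fold change was 0.79 over the members and 0.03 over all genes. Between day −2 and day 0, 9 of 17 members were called (7 higher, 2 lower; all genes 35.5% called, 16.4% higher and 19.1% lower), and between day 0 and day +2, 11 of 19 (10 higher, 1 lower; all genes 41.4% called, 21.3% higher and 20.1% lower), with more higher calls after confluence than before it. The hairpin lines were compared with themselves in the same way. MMP2sh1 gave 13 of 17 members called (11 higher, 2 lower; all genes 54.9% called, 27.3% higher and 27.7% lower) and MMP2sh2 14 of 17 (12 higher, 2 lower; all genes 54.7% called, 27.7% higher and 27.1% lower). In each line the 2 that fell were SERPINB7 and SERPINB5. Poly(A) RNA of a whole culture was measured, so a change in the share of cells that express a gene and a change per cell cannot be told apart.

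**Figure D2:**
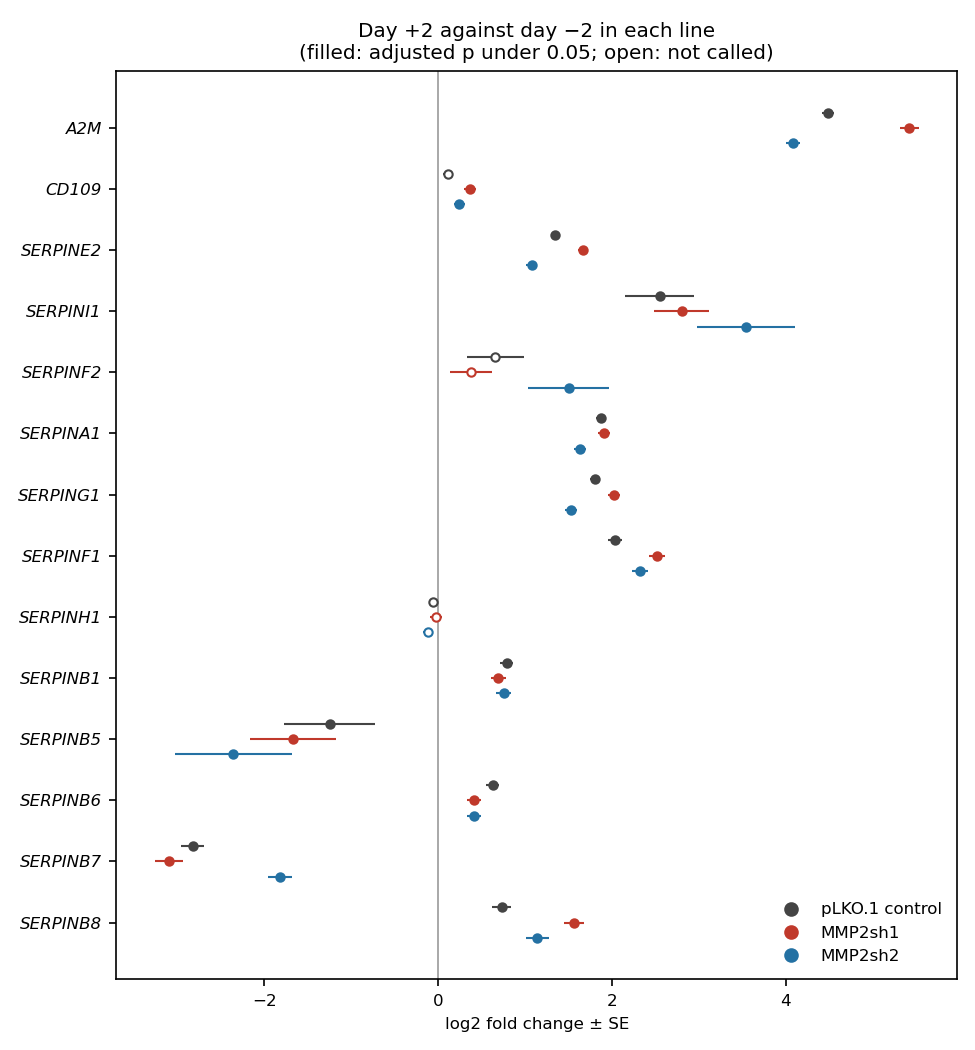
Log2 fold change ± SE (x axis) of day +2 over day −2 in each of the 3 lines for 14 members that reached 1 CPM (y axis), with filled points for adjusted p under 0.05. A2M lies farthest to the right in every line (4.49 in control), SERPINB5 and SERPINB7 lie left of 0 in all lines, and SERPINH1 sits near 0 (−0.06 in control).

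The second question was how each hairpin line differed from control at each density. With 1 stable line per hairpin, an effect of MMP-2 depletion cannot be told apart from other differences between lines. In MMP2sh1 against control, 6 of 18 members tested were called on day −2 (2 higher, 4 lower; all genes 11.6% called, 5.42% higher and 6.14% lower), 5 of 16 on day 0 (2 higher, 3 lower in MMP2sh1; all genes 16.8% called, 8.26% higher and 8.58% lower) and 9 of 20 on day +2 (8 higher, 1 lower). On day +2 14.8% of all 19294 genes were called, 7.68% higher and 7.11% lower. MMP2sh2 gave 2 of 17 members on day −2 (both lower; all genes 11% called, 4.71% higher and 6.33% lower), 4 of 16 on day 0 (1 higher, 3 lower; all genes 12.9% called, 7.07% higher and 5.81% lower) and 4 of 19 on day +2 (1 higher, 3 lower; all genes 6.32% called, 2.89% higher and 3.43% lower). On day −2 of MMP2sh2 the members' share was thus near the background. With 3 libraries a group several of these counts rested on single libraries. The day −2 count of MMP2sh1 dropped from 6 to 3 without control replicate 1, MMP2sh1 replicate 1 or MMP2sh1 replicate 2, and its day +2 count from 9 to 5 without MMP2sh1 replicate 3. The day −2 count of MMP2sh2 went from 2 to 1 without control replicate 2, MMP2sh2 replicate 1 or MMP2sh2 replicate 2 and to 0 without control replicate 3, and its day +2 count from 4 to 2 without control replicate 3.

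**Figure D3:**
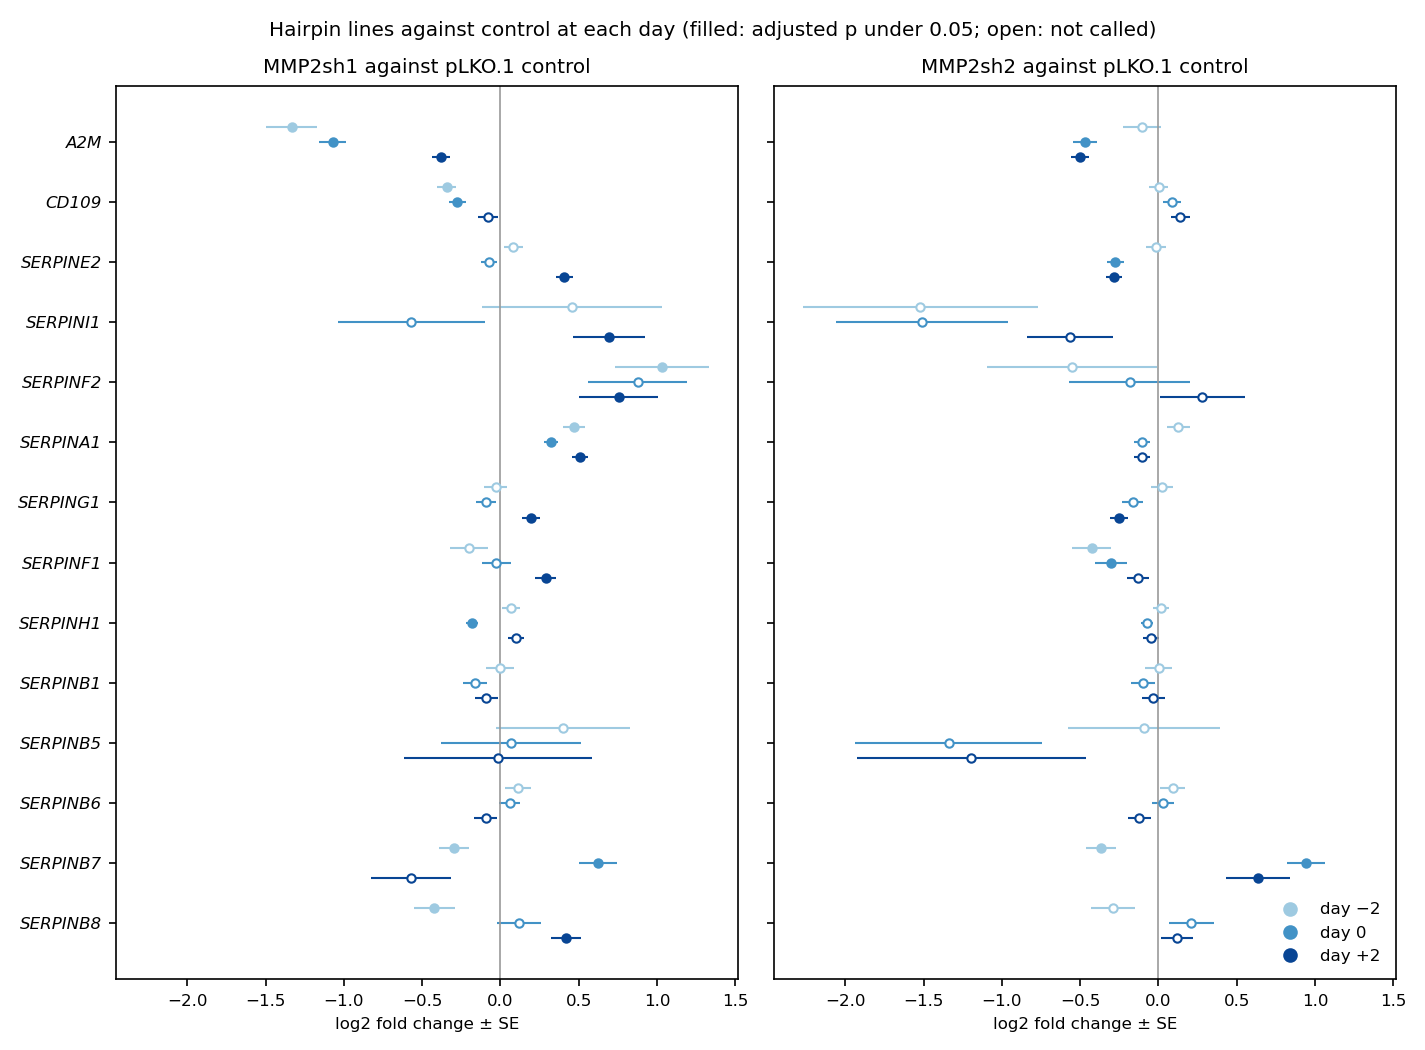
Log2 fold change ± SE (x axis) of MMP2sh1 (left) and MMP2sh2 (right) over the pLKO.1 control for 14 members that reached 1 CPM (y axis), with 1 shade per day and filled points for adjusted p under 0.05. In MMP2sh1, A2M moves from −1.33 on day −2 to −0.38 on day +2, and SERPINA1 stays right of 0 on all days.

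A2M, the protease cage itself (GRCh37 chr12:9220260-9268825, minus strand, 36 exons), had the largest fitted rise from day −2 to day +2 of the members above 1 CPM, in each of the 3 lines. In control cells it was measured at 8.65, 10.4 and 9.56 CPM on day −2, 30.8, 31.8 and 28.8 CPM on day 0 and 214, 199 and 222.8 CPM on day +2. The 3 days did not overlap, and the rise from the first to the last was 22.5-fold (log2 fold change 4.49 ± 0.07, edgeR adjusted p = 7.8e-26). In MMP2sh1 the values were 2.84, 4.10 and 4.34 CPM, then 15.3, 12.8 and 15.4 CPM and then 172, 151 and 167 CPM. In MMP2sh2 they were 9.32, 8.90 and 8.39 CPM, then 23.9, 21.5 and 21.4 CPM and then 163, 151 and 136 CPM. MMP2sh1 libraries thus lay below every control library on each day, and MMP2sh2 libraries did so on days 0 and +2 but not on day −2. MMP2sh1 was 2.52-fold lower than control on day −2 (−1.33 ± 0.16, edgeR adjusted p = 2.7e-06), 2.10-fold lower on day 0 (−1.07 ± 0.09, edgeR adjusted p = 2.3e-11) and 1.30-fold lower on day +2 (−0.38 ± 0.06, edgeR adjusted p = 1.9e-05). MMP2sh2 was lower on day 0 (−0.47 ± 0.08, edgeR adjusted p = 5.7e-05) and on day +2 (−0.50 ± 0.06, edgeR adjusted p = 5.7e-08), while on day −2 the difference was −0.10 ± 0.12, edgeR adjusted p = 0.67. The rise of A2M over the 4 days was itself steeper in MMP2sh1 than in control by 0.94 ± 0.13, edgeR adjusted p = 1.9e-05 on the log2 scale (interaction of line and day). In MMP2sh2 it was shallower (interaction −0.41 ± 0.11, edgeR adjusted p = 0.023), a call lost without control replicate 1 or MMP2sh2 replicate 1 of day −2 and without control replicate 3 or MMP2sh2 replicate 3 of day +2, with values of −0.47 to −0.32 when single libraries were left out. Of the exon bases of A2M 8.9% are shared with A2M-AS1 on the other strand, and the reads do not tell strands apart. A2M-AS1 stayed between 3.32 and 6.77 CPM in the group means, whereas A2M ran from 3.76 to 212 CPM.

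CD109, the membrane-anchored relative of A2M that is known as a co-receptor for TGF-beta (GRCh37 chr6:74405508-74538040, plus strand), behaved differently. Control cells held 96.2 ± 2.996, 102 ± 10.5 and 103 ± 9.18 CPM (mean ± SD, n = 3) on the 3 days, with a difference of 0.11 ± 0.06, edgeR adjusted p = 0.12 between the last and the first. In MMP2sh1 the libraries held 70.4, 79.8 and 77.4 CPM on day −2, 84.1, 84.5 and 84.1 CPM on day 0 and 95.7, 98.5 and 99.5 CPM on day +2. They lay below all control libraries on days −2 and 0 and overlapped them on day +2. The difference from control was −0.34 ± 0.06, edgeR adjusted p = 0.00045 on day −2, −0.27 ± 0.06, edgeR adjusted p = 0.00052 on day 0 and −0.08 ± 0.06, edgeR adjusted p = 0.47 on day +2. MMP2sh2 held 96.5 ± 7.07, 109 ± 4.41 and 114 ± 3.94 CPM and was not called against control on any day. From day −2 to day +2 CD109 rose in MMP2sh1 (0.36 ± 0.07, edgeR adjusted p = 6.2e-05) and in MMP2sh2 (0.24 ± 0.07, edgeR adjusted p = 0.0021). Neither change differed detectably from that of control (interaction 0.27 ± 0.09, edgeR adjusted p = 0.07 and 0.13 ± 0.09, edgeR adjusted p = 0.46). PZP, the pregnancy zone protein, and A2ML1, the epidermal relative, were too low to test, with at most 26 and 10 reads in a library.

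**Figure D4:**
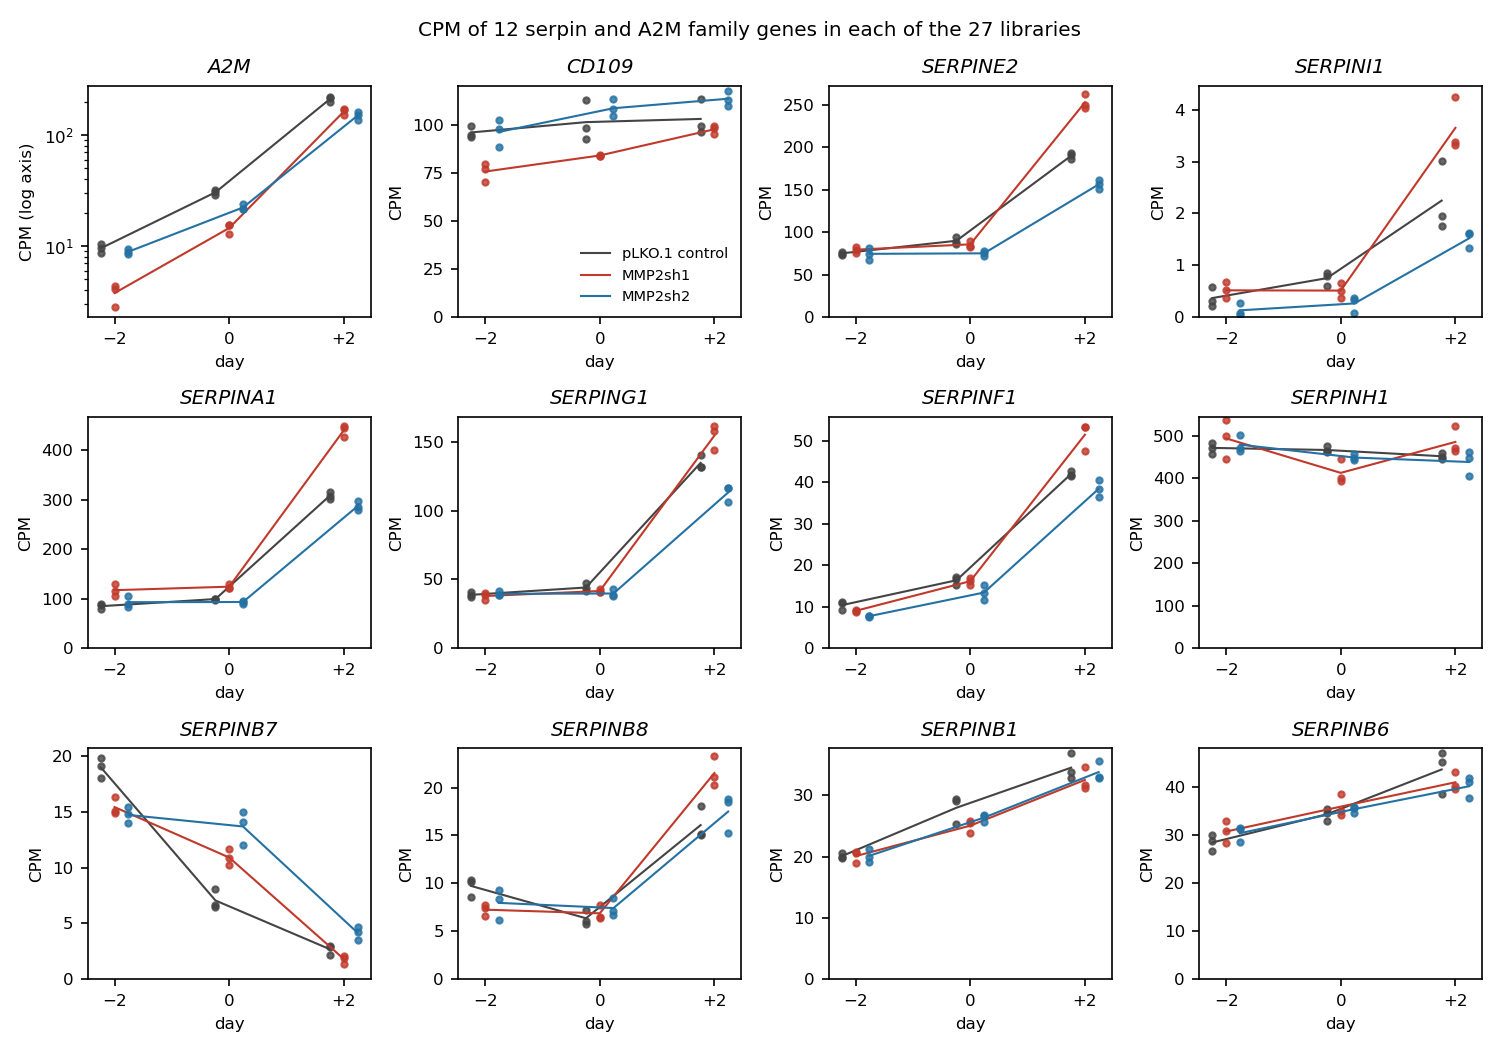
CPM of 12 members (1 panel each, log axis for A2M, linear axes from 0 for the others) against day, with 1 point per library, 3 libraries per line and day, and a line through the group means. A2M, SERPINA1, SERPINE2, SERPING1 and SERPINF1 climb after confluence, SERPINB7 falls, SERPINH1 stays between 394 and 538 CPM, and the MMP2sh1 points stand above the control points for SERPINE2, SERPINI1 and SERPINA1 on day +2.

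Plasminogen activation is held in check by a group of serpins, of which 6 are described here and 4 could be tested. SERPINE2, or protease nexin-1, inhibits thrombin, urokinase and plasmin at the cell surface (GRCh37 chr2:224839762-224904035, minus strand). On day −2 it was not called between any of the 3 lines, at 75.02 ± 1.87 CPM in control, 79.3 ± 3.54 CPM in MMP2sh1 and 74.4 ± 6.83 CPM in MMP2sh2. On day +2 the libraries held 193, 186 and 191 CPM in control, 246, 249.7 and 262 CPM in MMP2sh1 and 161, 151 and 157 CPM in MMP2sh2. No group overlapped another, with MMP2sh1 highest and MMP2sh2 lowest. In control it rose 2.54-fold over the 4 days (1.34 ± 0.05, edgeR adjusted p = 2.3e-18). MMP2sh1 stood above control on day +2 (0.41 ± 0.05, edgeR adjusted p = 9.8e-07) and was not called on day 0 (−0.07 ± 0.05, edgeR adjusted p = 0.37). MMP2sh2 stood below control on day 0 (−0.27 ± 0.05, edgeR adjusted p = 0.00045) and day +2 (−0.28 ± 0.05, edgeR adjusted p = 0.00027). On day +2 the 2 hairpin lines thus stood on opposite sides of control. The 2 lines differed directly on day +2 by 0.69 ± 0.05, edgeR adjusted p = 6.2e-09. The rise was larger in MMP2sh1 than in control (0.33 ± 0.08, edgeR adjusted p = 0.0052). For MMP2sh2 the interaction was −0.27 ± 0.08, edgeR adjusted p = 0.049, and that call was lost when any 1 of the 12 libraries other than MMP2sh2 replicate 1 of day −2 was left out (−0.33 to −0.20) and with no filter on low counts.

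The other members of this group were scarce. SERPINI1, or neuroserpin, an inhibitor of tPA, rose with density in every line, in control from 0.367 to 2.25 CPM (2.55 ± 0.39, edgeR adjusted p = 3.8e-06), in MMP2sh1 from 0.516 to 3.65 CPM (2.80 ± 0.31, edgeR adjusted p = 5.8e-08) and in MMP2sh2 from 0.130 to 1.52 CPM (3.54 ± 0.56, edgeR adjusted p = 2.9e-06). On day +2 the libraries held 1.96, 3.02 and 1.77 CPM in control and 4.25, 3.33 and 3.38 CPM in MMP2sh1, which did not overlap (0.69 ± 0.23, edgeR adjusted p = 0.039). That call was lost without any 1 of the MMP2sh1 libraries or control replicates 1 and 3 (0.54 to 0.97) and with DESeq2. SERPINF2, or alpha-2-antiplasmin, the inhibitor of plasmin, was measured at 1.04, 0.853 and 1.37 CPM in control and 2.44, 2.07 and 2.15 CPM in MMP2sh1 on day −2. On day +2 it was at 1.22, 1.86 and 2.01 CPM in control and 2.82, 2.71 and 3.11 CPM in MMP2sh1. MMP2sh1 libraries were above all control libraries on each of the 3 days, with 1.03 ± 0.30, edgeR adjusted p = 0.025 on day −2, 0.88 ± 0.32, edgeR adjusted p = 0.053 on day 0 and 0.75 ± 0.25, edgeR adjusted p = 0.039 on day +2. The day −2 call was lost without replicate 1 or 2 of either line (0.89 to 1.22) and the day +2 call without any library other than control replicate 3 (0.57 to 0.89). Both were lost with all 27 libraries in 1 fit, and the day +2 call also with no filter on low counts. In MMP2sh2, SERPINF2 was not called against control on any day. The differences were −0.55 ± 0.54, edgeR adjusted p = 0.59 on day −2, −0.18 ± 0.39, edgeR adjusted p = 0.83 on day 0 and 0.28 ± 0.27, edgeR adjusted p = 0.67 on day +2. SERPINE3 was tested in all 16 comparisons and called in none. SERPINI2 and SERPINB2, or PAI-2, were too low to test.

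Among the 11 plasma serpins of coagulation, the kinin system and complement, SERPINA1 and SERPING1 were expressed. SERPINA1, or alpha-1-antitrypsin, the inhibitor of neutrophil elastase, was at 78.2, 88.1 and 87.6 CPM in control on day −2, 99.2, 97.9 and 100.2 CPM on day 0 and 308, 301 and 316 CPM on day +2. The rise, 3.66-fold in all (1.87 ± 0.05, edgeR adjusted p = 8.9e-21), thus came mostly after confluence (1.66 ± 0.05, edgeR adjusted p = 1.7e-22). MMP2sh1 held 105, 116 and 129.5 CPM, 122, 121 and 129 CPM and 448, 427 and 445 CPM on these days, above every control library each time. The differences were 0.47 ± 0.07, edgeR adjusted p = 3.8e-05 on day −2, 0.32 ± 0.05, edgeR adjusted p = 3.3e-06 on day 0 and 0.51 ± 0.05, edgeR adjusted p = 7.4e-09 on day +2, and the rise itself did not differ detectably from that of control (interaction 0.04 ± 0.09, edgeR adjusted p = 0.85). MMP2sh2, at 92.7 ± 12.03, 93.1 ± 3.26 and 287 ± 8.66 CPM, was not called on any day (−0.11 ± 0.05, edgeR adjusted p = 0.25 on day +2). Of 11 hepatocyte markers 1, 1 and 2 were tested in MMP2sh1 against control on days −2, 0 and +2, and none was called. None passed 1 CPM in control and 1 did in MMP2sh1 on day +2, and their sum on that day was 0.883 to 1.74 CPM in control and 2.12 to 3.35 CPM in MMP2sh1, with ALB at no more than 0.10 CPM in any library. On day −2 the sums were 0.292 to 0.639 CPM in control and 0.293 to 1.30 CPM in MMP2sh1, and on day 0 0.516 to 0.853 CPM and 0.690 to 1.12 CPM, overlapping both times. Between day −2 and day +2, 1 of 2 markers tested was called higher in control, 1 of 2 in MMP2sh1 and 0 of 1 in MMP2sh2. All genes were called at 56.8%, 54.9% and 54.7%. Against MMP2sh2, MMP2sh1 was called higher for 0 of 1 on day −2, 1 of 1 on day 0 and 1 of 2 on day +2. All genes were called there at 10.7%, 18.5% and 7.86%. The part of these markers in the SERPINA1 results was not tested. SERPINA1 was higher in MMP2sh1 than in MMP2sh2 at all 3 days, by 0.34 ± 0.08, edgeR adjusted p = 0.0057 on day −2, 0.43 ± 0.05, edgeR adjusted p = 1.3e-08 on day 0 and 0.62 ± 0.05, edgeR adjusted p = 9.5e-09 on day +2, of which the day −2 call was lost without MMP2sh2 replicate 1 or 2 (0.26 to 0.44).

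SERPING1, the C1 inhibitor of the complement and contact systems (GRCh37 chr11:57364860-57386644, plus strand), followed the same course in time. Control cells held 38.5, 36.9 and 40.98 CPM on day −2, 47.3, 43.6 and 41.6 CPM on day 0 and 132, 132 and 141 CPM on day +2, a rise of 3.50-fold (1.81 ± 0.06, edgeR adjusted p = 9.3e-20). On day +2 MMP2sh1 held 144, 158 and 162 CPM and MMP2sh2 117, 117 and 107 CPM. Control lay between the hairpin lines without overlap, above MMP2sh2 (−0.25 ± 0.06, edgeR adjusted p = 0.003) and below MMP2sh1 (0.20 ± 0.06, edgeR adjusted p = 0.02). The MMP2sh2 call was lost without control replicate 3 (−0.27 to −0.21 over the libraries left out), and the MMP2sh1 call without control replicate 1 or 2 or MMP2sh1 replicate 2 or 3 (0.16 to 0.25). The 2 hairpin lines differed from each other by 0.45 ± 0.06, edgeR adjusted p = 2.5e-05 on that day. The remaining 9 plasma serpins stayed below 1 CPM. SERPIND1, or heparin cofactor II, was tested in 11 comparisons, SERPINA5, the protein C inhibitor, in 4 and SERPINA12, or vaspin, in 3, and none was called. SERPINC1, the gene of antithrombin, had at most 8 reads in a library. SERPINA3, SERPINA9 and SERPINA10 had at most 18, 14 and 10 reads, and SERPINA4 and SERPINA11 at most 1.

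The serpins without a protease to inhibit included a steady and a rising gene. SERPINH1, which escorts procollagen through the endoplasmic reticulum (GRCh37 chr11:75273101-75283828, plus strand), was at 472 ± 13.1, 467 ± 7.27 and 452 ± 7.81 CPM in control on the 3 days, with a difference of −0.06 ± 0.04, edgeR adjusted p = 0.29 between last and first. It was called against control in 1 comparison, MMP2sh1 on day 0, where the libraries held 394, 401 and 445 CPM against 462, 464 and 475 CPM in control (−0.18 ± 0.04, edgeR adjusted p = 0.0014). SERPINF1, or PEDF, a secreted factor that restrains blood vessel growth (GRCh37 chr17:1665323-1680859, plus strand), was at 9.24, 11.01 and 10.8 CPM in control on day −2, 17.1, 15.3 and 16.8 CPM on day 0 and 41.6, 41.8 and 42.8 CPM on day +2. It rose 4.09-fold (2.03 ± 0.08, edgeR adjusted p = 3e-17), and each day was above the one before. On day +2 MMP2sh1 held 53.5, 53.4 and 47.6 CPM and MMP2sh2 38.4, 40.6 and 36.4 CPM. MMP2sh1 was above control without overlap (0.29 ± 0.07, edgeR adjusted p = 0.0032), and its rise was larger (interaction 0.49 ± 0.12, edgeR adjusted p = 0.0086). MMP2sh2 was below control on day −2 (−0.43 ± 0.12, edgeR adjusted p = 0.025) and day 0 (−0.30 ± 0.10, edgeR adjusted p = 0.045) and not called on day +2 (−0.13 ± 0.07, edgeR adjusted p = 0.34). The day −2 call was lost without control replicate 2 or 3 or MMP2sh2 replicate 1 or 2 (−0.50 to −0.38), the day 0 call without replicate 1 or 3 of either line (−0.41 to −0.22) and with DESeq2. SERPINA6, the carrier of cortisol, had at most 11 reads in a library and SERPINA7, the carrier of thyroxine, none. SERPINF2 lies next to SERPINF1 on chromosome 17 (GRCh37 chr17:1646130-1658559, plus strand), yet in control SERPINF2 differed between day +2 and day −2 by 0.66 ± 0.33, edgeR adjusted p = 0.092.

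Clade B serpins remain inside the cell, where they guard against escaped lysosomal and granule proteases. Of 12 in the list 8 were tested in control cells, with 5 higher and 2 lower on day +2 than on day −2 (all genes 56.8% called, 28.1% higher and 28.6% lower). SERPINB7, or megsin, a serpin known from skin and kidney (GRCh37 chr18:61420169-61472610, plus strand), fell most. It was at 18.04, 19.1 and 19.8 CPM on day −2, 6.60, 8.06 and 6.48 CPM on day 0 and 2.98, 2.90 and 2.13 CPM on day +2 in control (−2.83 ± 0.13, edgeR adjusted p = 4e-16). In MMP2sh1 the values were 15.04, 16.4 and 14.9 CPM, 10.9, 11.6 and 10.2 CPM and 1.37, 2.10 and 1.92 CPM. In MMP2sh2 they were 15.4, 14.8 and 13.99 CPM, 14.1, 12.02 and 14.9 CPM and 3.51, 4.26 and 4.68 CPM. Both hairpin lines lay below all control libraries on day −2 and above all of them on day 0, and on day +2 MMP2sh2 was above and MMP2sh1 below. On day 0 the differences were 0.63 ± 0.12, edgeR adjusted p = 0.00031 in MMP2sh1 and 0.94 ± 0.12, edgeR adjusted p = 7e-07 in MMP2sh2. On day −2 they were −0.30 ± 0.10, edgeR adjusted p = 0.042 in MMP2sh1, lost when any 1 library was left out (−0.34 to −0.27), and −0.37 ± 0.09, edgeR adjusted p = 0.013 in MMP2sh2, lost without control replicate 3 (−0.40 to −0.33). On day +2 MMP2sh1 was not called (−0.57 ± 0.26, edgeR adjusted p = 0.15), and MMP2sh2 was called at 0.64 ± 0.20, edgeR adjusted p = 0.049, a call lost without any library other than MMP2sh2 replicate 1 (0.50 to 0.75) and with DESeq2. The fall over the 4 days was smaller in MMP2sh2 than in control (interaction 1.01 ± 0.19, edgeR adjusted p = 7e-04), and on day +2 MMP2sh1 was below MMP2sh2 (−1.21 ± 0.22, edgeR adjusted p = 0.00078).

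Epithelial and keratinocyte markers, 10 genes that many clade B serpins accompany in skin, summed to 492 to 532 CPM in control on day −2 and 377 to 400.3 CPM on day +2. On day −2, when SERPINB7 was called lower in both hairpin lines and SERPINB8 in MMP2sh1, they summed to 695 to 762 CPM in MMP2sh1 and 608 to 691 CPM in MMP2sh2. Their part in these results was not tested. KRT8 and KRT18, of simple epithelia, made up most of these sums, at 225.87 to 569 CPM and 107 to 189 CPM over all libraries. Of the keratinocyte genes, KRT14 was at 0.81 to 12.8 CPM, KRT5 at 0.20 to 1.12 CPM, TP63 at 0 to 1.20 CPM and DSG3 at 0 to 0.17 CPM. SERPINB8, an inhibitor of furin in biochemical work, dipped and then rose. Control libraries held 10.4, 8.60 and 10.2 CPM on day −2, 6.04, 5.76 and 7.26 CPM on day 0 and 15.2, 18.1 and 15.001 CPM on day +2, a fall (−0.61 ± 0.13, edgeR adjusted p = 0.00061) followed by a rise (1.36 ± 0.12, edgeR adjusted p = 8.8e-11). MMP2sh1 libraries held 6.55, 7.42 and 7.79 CPM on day −2 and 21.1, 20.2 and 23.3 CPM on day +2. They were below all control libraries at first (−0.42 ± 0.13, edgeR adjusted p = 0.036) and above all of them at the end (0.42 ± 0.10, edgeR adjusted p = 0.0026). The first of these calls was lost without control replicate 1 or 3 or MMP2sh1 replicate 1 or 2 (−0.50 to −0.36), while the interaction of line and day, 0.84 ± 0.16, edgeR adjusted p = 0.00077, held with each library left out. MMP2sh2 was not called on any day. SERPINB1, an inhibitor of neutrophil proteases, and SERPINB6, which inhibits cathepsin G, rose in control from 20.1 to 34.5 CPM (0.79 ± 0.08, edgeR adjusted p = 1.1e-09) and from 28.4 to 43.6 CPM (0.63 ± 0.08, edgeR adjusted p = 7.8e-08). Neither was called between any pair of lines on any day.

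The low members of clade B gave few reads. SERPINB5, or maspin, had 28, 46 and 28 reads in control on day −2 and 9, 10 and 20 on day +2 (−1.25 ± 0.53, edgeR adjusted p = 0.045). The call was lost without control replicate 2 or 3 of day −2 or replicate 1 or 2 of day +2 (−1.65 to −0.96). It was also lost in 4 of the 5 other fits that gave a value: DESeq2, no filter on low counts, a replicate block and all 27 libraries in 1 fit. SERPINB4 had 6, 6 and 0 reads in control on day −2 and 30, 44 and 32 on day +2 (3.33 ± 0.66, edgeR adjusted p = 9.8e-05), and its near-identical neighbor SERPINB3 had 0, 5 and 2 and 20, 14 and 14 (2.87 ± 0.82, edgeR adjusted p = 0.0043). The 2 genes encode the squamous cell carcinoma antigens. Reads that fit both alike may have been dropped as low quality, which would lower both counts. Among the exon bases of SERPINB3, 36.3% are shared with SERPINB11 on the other strand, which had no read assigned. SERPINB9, the inhibitor of granzyme B, had 14, 5 and 13 reads in control and 39, 31 and 39 in MMP2sh1 on day +2 (1.71 ± 0.52, edgeR adjusted p = 0.022). Those counts did not overlap, but the call was lost without control replicate 2 or 3 or MMP2sh1 replicate 1 or 3 (1.35 to 2.04).

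The 3 clade B genes of chromosome 18 that reached 1 CPM each held the AP-1 heptamer in at least 1 promoter. The sequences are shown because SERPINB5 and SERPINB7 fell and SERPINB8 rose with density. Promoters (250 bases before to 50 after a start, RefSeq, GRCh38.p14) were at hand for 10 of the 14 members described that reached 1 CPM and not for A2M, SERPINF1, SERPINF2 and SERPING1. TGANTCA, searched on both strands, was found for SERPINB5, SERPINB7 and SERPINB8, 3 of the 10, and in 7.71% of all 35116 promoters of the same length. For every motif searched, a member counted when any of its promoters matched, whereas the share over all counts each promoter singly. A gene may have several promoters, so the members' share and the share over all are not in like units. The other motifs searched, which may overlap with this one and with each other, were TTCNNNGAA (3 of 10; 7.66% of all), TATAAA (3 of 10; 11.5%), CAGACA (5 of 10; 16.9%), CACGTG (1 of 10; 7.26%) and CATTCC (0 of 10; 14%). CAGACA was likewise found for SERPINB5, SERPINB7 and SERPINB8, and TTCNNNGAA and TATAAA were found for SERPINB7 and SERPINB8. The windows below give the match nearest to the RefSeq start in capitals with 10 bases on each side, on the plus strand, with their place found by exact match in GRCh37: chr18:61144035-61144061 for SERPINB5, 146 bases before the start, chr18:61442603-61442629 for SERPINB7, 39 bases before the start, and chr18:61637277-61637303 for SERPINB8, 28 bases before. For SERPINB7 and SERPINB8 both the window and that start lie within the annotated GRCh37 span of the gene. A match of letters is a description and no measure of binding.
SERPINB5: aacttcagccTGAATCAtttctttcaa
SERPINB7: tgctgtgctcTGAGTCAtagggaagcc
SERPINB8: cgaacggttcTGAGTCAtctgccggaa

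The hairpin lines were last compared with each other. MMP2sh1 and MMP2sh2 differed in 4 of 16 members on day −2 (2 higher and 2 lower in MMP2sh1; all genes 10.7% called, 5.01% higher and 5.69% lower), in 8 of 16 on day 0 (4 and 4; all genes 18.5% called, 8.9% higher and 9.62% lower) and in 7 of 18 on day +2 (5 higher, 2 lower). On day +2 7.86% of all genes were called, 4.59% higher and 3.27% lower. The 5 that were higher on day +2 were SERPINA1, SERPINE2, SERPINF1, SERPING1 and SERPINI1, and the 2 lower ones were SERPINB7 and CD109, the latter a call lost without MMP2sh1 replicate 2 or MMP2sh2 replicate 1 or 2 (−0.24 to −0.19). A2M, which was 2.35-fold lower in MMP2sh1 than in MMP2sh2 on day −2 (−1.23 ± 0.17, edgeR adjusted p = 6.6e-06), was not called between them on day +2 (0.12 ± 0.07, edgeR adjusted p = 0.33). The day −2 count dropped to 2 without MMP2sh2 replicate 1 or 2, and the day 0 count to 4 without MMP2sh1 replicate 1 and to 5 without MMP2sh2 replicate 3. In the tests of line by day, 4 of 21 members were called in MMP2sh1, all with a change over time that was more positive than in control (all genes 7.4% called, 4.52% higher and 2.88% lower), and 3 of 20 in MMP2sh2, 1 more positive and 2 more negative (all genes 4.98% called, 2.71% higher and 2.28% lower). The MMP2sh2 count fell to 1 without control replicate 1 of day −2 or replicate 3 of day +2, and without MMP2sh2 replicate 3 of day +2.

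The proteases that these inhibitors meet were described from lists of genes. Of 12 genes of plasminogen activation, 9 were tested between control day +2 and day −2, with 3 higher, 4 lower and 2 not called (all genes 56.8% called, 28.1% higher and 28.6% lower). PLAU, the gene of urokinase and a target of SERPINE2, was at 36.3 ± 1.06 CPM on day −2 and 86.3 ± 5.28 CPM on day +2 (mean ± SD, n = 3; 1.26 ± 0.06, edgeR adjusted p = 8.1e-16), while S100A10, which with ANXA2 forms a docking site for plasminogen, fell (−1.34 ± 0.05, edgeR adjusted p = 4.2e-18). On day +2 in MMP2sh1, 2 of 9 were higher and none lower (all genes 14.8% called, 7.68% higher and 7.11% lower). PLAU was at 175 ± 3.68 CPM (1.02 ± 0.06, edgeR adjusted p = 1.5e-13), and PLAT, the gene of tPA, at 181 ± 4.07 CPM against 142 ± 7.78 CPM in control (0.35 ± 0.06, edgeR adjusted p = 3.9e-05). Both activators were thus higher in that line on that day. In MMP2sh2 on day +2 PLAU was higher as well (0.38 ± 0.06, edgeR adjusted p = 2.2e-05), with 2 of 9 higher and 2 lower (all genes 6.32% called, 2.89% higher and 3.43% lower).

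Of 14 genes around thrombin and coagulation, 8 were tested in MMP2sh1 on day +2, 2 higher, 2 lower and 4 not called (all genes 14.8% called, 7.68% higher and 7.11% lower). F2RL2, the thrombin receptor PAR3, was lower in MMP2sh1 on all 3 days, at 18.04 ± 1.52 CPM against 48.3 ± 3.50 CPM on day +2 (−1.42 ± 0.08, edgeR adjusted p = 1.5e-13). Of 38 other target proteases 37 were in the tables. Between control day +2 and day −2, 22 of them were tested, with 13 higher, 4 lower and 5 not called (all genes 56.8% called, 28.1% higher and 28.6% lower). C1R and C1S, the complement proteases that SERPING1 inactivates, were lower in MMP2sh1 on day 0 (−0.57 ± 0.10, edgeR adjusted p = 0.00014 and −0.71 ± 0.17, edgeR adjusted p = 0.003). KLK6, a secreted kallikrein, was higher in MMP2sh1 than in control on day −2 (0.71 ± 0.08, edgeR adjusted p = 8e-07) and lower in MMP2sh2 (−0.34 ± 0.08, edgeR adjusted p = 0.01). PRSS1, a trypsinogen gene with close copies, was at 10.4 ± 1.09 CPM in MMP2sh1 and 1.93 ± 0.640 CPM in control on day +2 (2.43 ± 0.18, edgeR adjusted p = 5.4e-11). Reads that fit PRSS1 and a copy alike may have been dropped as low quality.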

How the data were processed

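Poly(A) RNA of 27 U2OS cultures (9 groups of 3) was sequenced by the authors as paired reads with a library kit that does not keep strand. Per the labels and the submitters' processing notes, the authors used Trim Galore 0.6.0 for adapter trimming, STAR 2.7.3a for alignment against hg19, Samtools to drop low-quality reads and HTSeq 2.0.0, in its unstranded mode over exons, for counting. What they deposited are raw read counts for each symbol, with no normalization. Reads that overlapped exons of more than 1 gene (6.95% to 7.83% of the total) were discarded by the counter, which lowers genes with overlapping neighbors. The 5 HTSeq summary lines (16.8% to 19.1%) stayed out of library sizes and tests.

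Each comparison was fitted across all genes on its own 6 libraries (12 for the interaction of line and day) with edgeR 4.0.16 in R 4.3.3: the quasi-likelihood test after TMM scaling and filterByExpr (at least 10 counts, 15 in total). P-values were adjusted by Benjamini-Hochberg over all genes tested, with calls at an adjusted p under 0.05. The study's methods used DESeq2, which was run as an alternative (DESeq2 1.42.0) with edgeR's RLE scaling, no filter, at least 10 counts in every library, a replicate block, all 27 libraries in 1 fit, and each library left out. A ± after a log2 fold change is its standard error, the change divided by the square root of F. CPM are counts scaled to the reads on the 22107 genes that passed the filter over all libraries, with TMM factors (0.925 to 1.05), and values per kilobase were divided by the canonical transcript length of GENCODE v44 on GRCh37, where all 37 members matched. Counting error is covered by the counts given, and p-values measure the spread between the 3 replicates. Replicate libraries differed by more than sampling noise (chi-square per degree of freedom 4.74 to 24.6 over 27 pairs). Scripts were tested on simulated data.

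Members and lists were chosen with earlier results of these data known. Library values are given for members above 1 CPM in a group, fold changes for the 10 called members with the largest changes per comparison, and from each pathway list up to 3 called genes with the largest changes. For A2M the 5 genes most alike were listed. The fold changes of SERPINB1, SERPINB6 and CD109 over time and those of members not called were added after their values were seen. Of the 38 members 1, and 1 gene of the pathway lists, are not reported here, and counts leave them out. Protein sequences were not used here.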

Additional observations from a re-analysis of the deposited data

Results flagged for a closer look

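The change from day −2 to day +2 differed between a hairpin line and control, by the interaction of line and day, in 7 cases. A positive value means a more positive log2 change over time in the hairpin line. In MMP2sh1 the difference was 0.94 ± 0.13 (edgeR adjusted p = 1.9e-05) for A2M, 0.84 ± 0.16 (edgeR adjusted p = 0.00077) for SERPINB8, 0.49 ± 0.12 (edgeR adjusted p = 0.0086) for SERPINF1 and 0.33 ± 0.08 (edgeR adjusted p = 0.0052) for SERPINE2. In MMP2sh2 it was 1.01 ± 0.19 (edgeR adjusted p = 7e-04) for SERPINB7, −0.41 ± 0.11 (edgeR adjusted p = 0.023) for A2M and −0.27 ± 0.08 (edgeR adjusted p = 0.049) for SERPINE2. A2M and SERPINE2 were called in both lines with opposite signs. With 1 of the 12 libraries left out at a time, the MMP2sh2 call was lost in 4 fits for A2M and in 11 for SERPINE2. The sign of the A2M value in MMP2sh1 went with a lower start, 3.76 CPM against 9.53 CPM in control on day −2, and that of SERPINE2 with a higher end, 253 CPM against 189.9 CPM on day +2. Groups of 3 libraries are too small for a test of single outlying samples.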

How the results depend on the processing

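Of 116 calls on members, 91 held with every library left out and under each of the 6 other fits that gave a value for the gene. Some scarce members, such as SERPINB4 in control between day +2 and day −2, had a value in 5 of these fits only. No call changed sign, 17 were lost under at least 1 other fit and 24 with at least 1 library left out. Counts of called members with 1 library left out ranged from 3 to 5 (6 with all libraries) for MMP2sh1 against control on day −2, 5 to 7 (9) on day +2, 0 to 2 (2) for MMP2sh2 against control on day −2, 2 to 4 (4) on day +2, 2 to 4 (4) for MMP2sh1 against MMP2sh2 on day −2, 4 to 8 (8) on day 0, and 1 to 3 (3) for the interaction in MMP2sh2. Fitting all 27 libraries together gave 5 called members in place of 8 for MMP2sh1 against MMP2sh2 on day 0. Other fits kept every count of called members within 1.5 times. Replicate numbers did not pair the libraries: same-numbered libraries of 2 groups correlated at −0.08 to 0.13, and 12 of 42 libraries correlated best with their own number. With the replicate block the count was 6 in place of 9 for MMP2sh1 on day +2 and 2 in place of 3 for the interaction in MMP2sh2, and no count moved by over 1.5 times. The block lost the calls of SERPINF2, SERPING1 and SERPINI1 in MMP2sh1 on day +2, of SERPINF1 in MMP2sh2 on day 0, of SERPINB7 in MMP2sh2 on day +2, of SERPINB5 in control between day +2 and day −2 and of SERPINE2 in the MMP2sh2 interaction. Depth limits the 16 members never tested, which held at most 26 reads in any library and passed the filter in no comparison.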

Other observations

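Of 7 receptors that clear inhibitor complexes 6 were tested between control day +2 and day −2, with 1 higher, 4 lower and 1 not called (all genes 56.8% called, 28.1% higher and 28.6% lower). VLDLR, a receptor for lipoproteins and inhibitor complexes, fell from 22.5 ± 1.73 to 12.3 ± 1.27 CPM (−0.87 ± 0.10, edgeR adjusted p = 1.9e-08), and LRP8 from 51.6 ± 1.39 to 30.01 ± 1.72 CPM (−0.78 ± 0.07, edgeR adjusted p = 9.8e-11). On day +2 VLDLR and LRP8 were higher than in control in MMP2sh1 (0.77 ± 0.10, edgeR adjusted p = 1.4e-06 and 0.52 ± 0.07, edgeR adjusted p = 3.7e-06) and also in MMP2sh2 (0.40 ± 0.10, edgeR adjusted p = 0.011 and 0.30 ± 0.08, edgeR adjusted p = 0.0078).

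Of 33 listed inhibitors outside the serpin and alpha-2-macroglobulin families, 19 were tested in control between day +2 and day −2, with 9 higher, 4 lower and 6 not called (all genes 56.8% called, 28.1% higher and 28.6% lower). CST5, or cystatin D, an inhibitor of cysteine proteases, rose to 9.85 ± 0.258 CPM from 0.179 ± 0.0328 CPM (5.77 ± 0.23, edgeR adjusted p = 2.6e-17). PI3, or elafin, an inhibitor of elastase, fell from 6.38 ± 1.02 to 0.205 ± 0.161 CPM (−4.89 ± 0.33, edgeR adjusted p = 1.1e-12). On day +2 in MMP2sh1, 6 of 22 were higher and 1 lower (all genes 14.8% called, 7.68% higher and 7.11% lower), and in MMP2sh2 none of 21 was higher and 2 were lower (all genes 6.32% called, 2.89% higher and 3.43% lower).

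Over the 9 group means, the genes with the profile most like that of A2M among 15136 genes were TSC22D1 (Pearson r 0.997), TMBIM4 (0.996), IGSF1 (0.994), RP11-705C15.2 (0.994) and TTC17 (0.993). The values correlated were log2 CPM, with a constant added to CPM before the logarithm. The points share lines and days, so these values are a description of 9 means.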
